A study of Mus musculus with 6 samples.

Results

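Fatty acid oxidation and ketogenesis are represented here by 37 genes, chosen by name as enzymes, carriers and regulators of mitochondrial and peroxisomal beta-oxidation, acyl-CoA thioesterases, ketone body enzymes and targets of the nuclear receptor PPAR-alpha. These genes and the further lists below were chosen with earlier results of these data known. All 37 were listed among the 18253 gene symbols of the liver RNA sequencing tables. The livers came from C57BL/6 mice labelled as postnatal day 21. One group of 3 libraries came from mice given alpha-naphthylisothiocyanate (ANIT), a bile duct toxicant used to produce cholestasis. The other 3 libraries came from mice given ANIT and celastrol, a plant triterpenoid, and are called the celastrol libraries below. The labels give a treatment time of 5 days for both groups. Every library therefore carries ANIT, and no library came from an untreated mouse. The labels do not say whether each library is a separate animal, so each p-value reflects only the spread among these libraries, which may be technical.

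Beta-oxidation shortens fatty acids step by step to acetyl-CoA. Mitochondria take up long-chain fatty acids through the carnitine shuttle and oxidise most of them, whereas peroxisomes shorten very long and branched chains and hand the products on. In liver the acetyl-CoA is partly turned into ketone bodies, which other tissues burn during fasting. PPAR-alpha, bound to DNA with its partner RXR, switches on many of these genes when fatty acids reach the liver. Thioesterases act in the opposite sense to the activating enzymes, since they split acyl-CoA into free fatty acid and coenzyme A.

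Facts of the whole series that bear on these genes are as follows. Values are FPKM (fragments scaled to gene length and to the size of the library), as deposited. Depth, estimated from the steps between low values, lay between 18980000 and 19840000 reads, so that 1 FPKM over 1 kilobase is 19.0 to 19.8 reads. Celastrol replicate 2 stood apart from the other celastrol libraries: 20.7% of its summed FPKM fell to the 10 most abundant genes, close to the 20.3% to 21.9% of the ANIT libraries, against 33.2% and 31.5% in celastrol replicates 1 and 3. It also held skeletal muscle transcripts, with 6 of 6 muscle markers listed and a summed level of 26.5 FPKM against at most 0.12 FPKM in each other library. Of 9 tested hepatocyte markers only Alb passed the test, and it fell. The summed hepatocyte level was 48660 to 61230 FPKM with ANIT and 20280 to 27700 FPKM with celastrol, of which Alb made up 29350 to 38660 and 5341 to 10050 FPKM. Of the other tested markers 1 of 6 endothelial genes rose (Stab2), 1 of 3 cholangiocyte genes fell (Krt19), and none of 9 macrophage or 4 stellate cell genes passed. Neutrophil markers (4 of 4 tested rose) were summed at 26.6 to 50.2 FPKM with ANIT and 64.2 to 91.0 FPKM with celastrol. Krt19 reached 1 FPKM only with ANIT and Ngp, a neutrophil marker, only with celastrol. Each of them therefore entered the test through the group where it was high. The sums were 117 to 249 and 211 to 269 FPKM for macrophages, 25.9 to 43.9 and 36.7 to 64.9 FPKM for endothelium, 18.9 to 35.7 and 14.96 to 52.2 FPKM for stellate cells and 39.8 to 47.2 and 16.9 to 45.4 FPKM for cholangiocytes. Lymphocyte markers summed to at most 2.32 FPKM and adipocyte markers to at most 0.22 FPKM. In bulk liver, fewer cells of a type and less RNA per cell cannot be told apart, and the part of these differences in the results was not tested.

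The comparison asks which genes of fat oxidation differ between ANIT livers with and without celastrol. The acyl-CoA thioesterase gene Acot4 and Pdk4, the kinase that holds back pyruvate oxidation, fell, each lower in all 3 celastrol libraries than in any ANIT library. The neighbouring thioesterase genes Acot2 and Acot3 were also called lower, but they reached 1 FPKM only in the ANIT libraries and so entered the test through the group where they were high. Pdk4 reached 1 FPKM in all 3 ANIT libraries and in 1 celastrol library. The medium- and long-chain acyl-CoA dehydrogenases Acadm and Acadl and the peroxisomal bifunctional enzyme Ehhadh also fell, by smaller amounts. The carnitine shuttle, including the rate-limiting Cpt1a, and PPAR-alpha itself did not pass the test. Acaa1b, Fabp1 and Acot1 were far lower in celastrol replicates 1 and 3 and at ANIT levels in celastrol replicate 2.

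Across the members 7 of 37 fell (18.9%) and none rose by limma on log2(FPKM + 1) with Benjamini-Hochberg adjusted p under 0.05 over all 10593 genes tested, which are those at 1 FPKM or more in at least 3 libraries. Over all tested genes 20.6% fell and 4.41% rose, so the share of members that fell lay near the background. The median log2 fold change was -0.36 over the 37 members and -0.17 over all tested genes. The groups did not overlap for 10 members (27.0%), all lower with celastrol, against 36.6% of all tested genes that were lower without overlap. After median-ratio scaling, which brings the typical gene to the same level in every library and moved the median of all tested genes from -0.17 to -0.02, 6 members fell and 1 rose, against 11.0% and 7.57% of all genes. Without celastrol replicate 2 the count was 21 of 37 (56.8%), against 32.0% of all genes. It was 4 of 37 (10.8%) without celastrol replicate 1 or 3, against 921 of 10457 and 1315 of 10483 of all genes. Without ANIT replicate 1, 2 or 3 it was 2 of 35 (5.71%), against 1189 of 10403, 911 of 10391 and 1432 of 10407 of all genes. Acadl, Acadm and Ehhadh lost their calls without any 1 ANIT library and without celastrol replicate 1 or 3, and kept them without celastrol replicate 2. Acot2 and Acot3 no longer reached the abundance filter when an ANIT library was left out. Celastrol replicate 2 was the highest celastrol library for 33 of 37 members (89.2%) and for 63.4% of all tested genes. For 17 members (45.9%) celastrol replicates 1 and 3 lay below every ANIT library while replicate 2 did not, a pattern found in 17.1% of all tested genes. Leaving out celastrol replicate 2 favours genes with this pattern, so the count of 21 members adds no separate evidence.

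**Figure D1:**
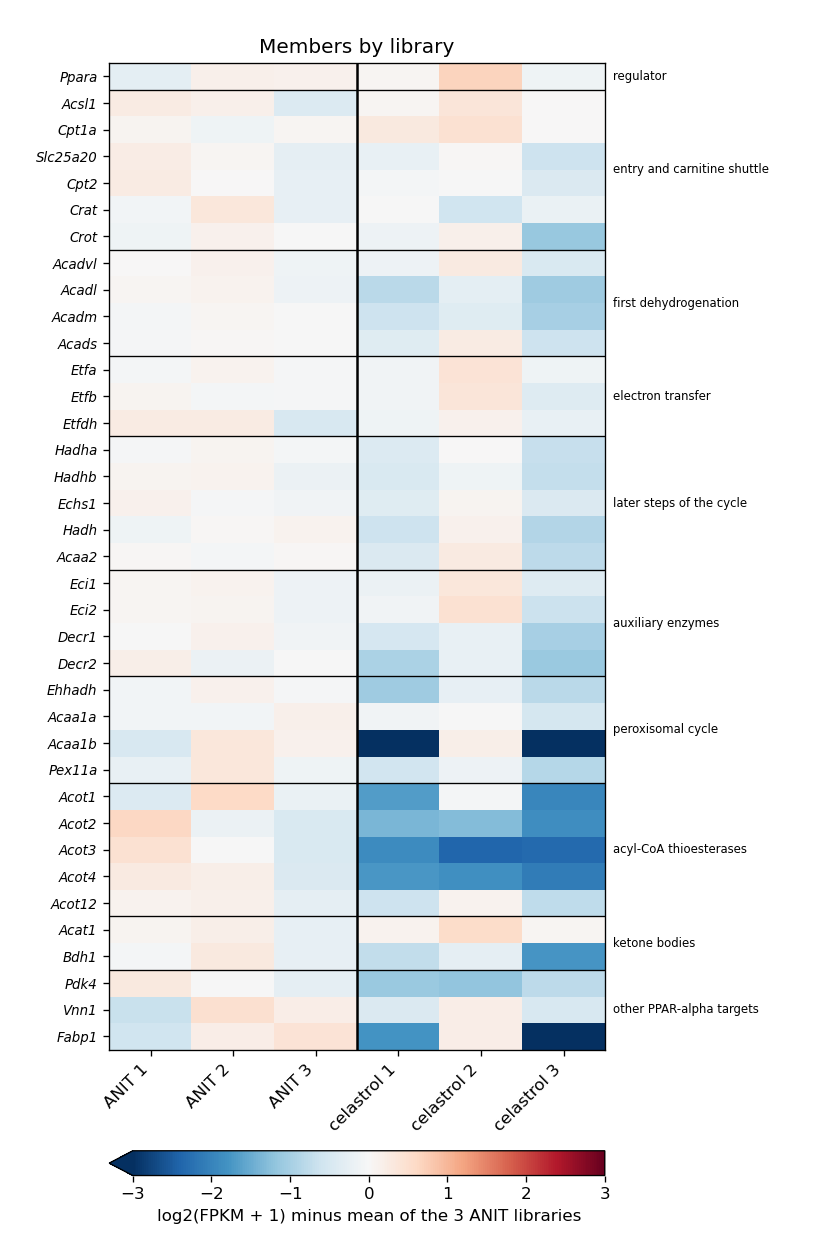
Each row is a member and each column a library, and colour gives log2(FPKM + 1) minus the mean of the 3 ANIT libraries, with values under -3 drawn in the darkest blue. Acot2, Acot3, Acot4 and Pdk4 are blue in all 3 celastrol columns, whereas Acaa1b, Acot1 and Fabp1 are blue in celastrol 1 and 3 and near white in celastrol 2.

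Ppara, which encodes the receptor, measured 16.6, 22.9 and 22.6 FPKM in ANIT replicates 1, 2 and 3 and 21.2, 33.0 and 18.7 FPKM in celastrol replicates 1, 2 and 3. The groups overlapped, and the difference missed the threshold (log2 fold change 0.20 ± 0.22 SE, adjusted p = 0.54 by limma). Without celastrol replicate 2 its log2 fold change was -0.04.

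Entry into the pathway begins with Acsl1, which joins long-chain fatty acids to coenzyme A. Acsl1 measured 77.0 ± 17.5 FPKM with ANIT and 84.6 ± 11.9 FPKM with celastrol (n = 3 each, SD). Cpt1a, which moves the acyl group onto carnitine at the outer mitochondrial membrane and sets the rate of entry, measured 60.2, 51.5 and 58.6 FPKM in the ANIT libraries and 69.3, 78.3 and 57.3 FPKM in the celastrol libraries. Celastrol replicates 1 and 2 lay above every ANIT library and replicate 3 within their range. The log2 fold change of Cpt1a was 0.25 (SE 0.15, adjusted p = 0.24 by limma), and it passed as a rise after median-ratio scaling (0.43, adjusted p = 0.044) and quantile normalization (0.52, adjusted p = 0.023). The carrier Slc25a20 and the inner-membrane transferase Cpt2 had log2 fold changes of -0.27 and -0.17 and overlapped between groups. Crat and Crot, which move short and medium chains onto carnitine, had -0.27 and -0.38, and Crot was low in celastrol replicate 3 (46.0 FPKM) and not in replicates 1 and 2 (91.1 and 113 FPKM). None of the 6 entry genes passed.

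The first oxidation of each round is made by acyl-CoA dehydrogenases that differ in the chain length they accept. Acadm, for medium chains, measured 128, 138 and 131 FPKM in the ANIT libraries and 85.6, 103 and 66.2 FPKM in the celastrol libraries. All celastrol libraries lay below all ANIT libraries, and Acadm fell by 0.66 on the log2 scale (SE 0.17, adjusted p = 0.031 by limma). Acadl, for long chains, measured 84.3, 87.0 and 72.3 FPKM in the ANIT libraries and 46.1, 66.0 and 38.3 FPKM in the celastrol libraries. It fell by 0.72 on the log2 scale (SE 0.20, adjusted p = 0.038 by limma), again without overlap. Celastrol replicate 2 was the highest of its group for both genes. The enzymes for very long and for short chains, Acadvl and Acads, had log2 fold changes of -0.11 and -0.25 and missed the threshold. The calls of Acadm and Acadl were lost when any 1 ANIT library, or 1 of celastrol replicates 1 and 3, was removed (adjusted p 0.062 to 0.13), and without the filter (0.057 for Acadm and 0.072 for Acadl), and that of Acadl also after quantile normalization (0.052). They held without celastrol replicate 2 (adjusted p of 0.0065 and 0.0041).

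Electrons from these dehydrogenases pass to the electron transfer flavoprotein and its oxidoreductase. Etfa, Etfb and Etfdh had log2 fold changes of 0.06, -0.04 and -0.08, and their groups overlapped. Etfb, the most abundant of the 3, averaged 185 ± 9.28 FPKM with ANIT and 185 ± 49.8 FPKM with celastrol (n = 3 each, SD), with 239.8 FPKM in celastrol replicate 2 and 143 FPKM in replicate 3.

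None of the 5 genes of the later mitochondrial steps passed the test over all 6 libraries. Hadha, the alpha subunit of the trifunctional protein, measured 62.7, 68.6 and 62.0 FPKM in the ANIT libraries and 48.3, 64.8 and 39.7 FPKM in the celastrol libraries. Celastrol replicates 1 and 3 lay below every ANIT library and replicate 2 lay within their range (log2 fold change -0.36 ± 0.18 SE, adjusted p = 0.18 by limma). Hadhb, the beta subunit, whose gene lies head to head with Hadha on chromosome 5, had -0.43 (adjusted p = 0.11 by limma). Echs1, Hadh and the thiolase Acaa2, which carry out hydration, the second oxidation and the final cleavage, had log2 fold changes of -0.23, -0.45 and -0.32. All 5 showed the same order, with celastrol replicates 1 and 3 below every ANIT library and replicate 2 not. Without celastrol replicate 2 all 5 passed as falls (adjusted p from 0.0075 to 0.033 by limma), against 32.0% of all genes tested in that fit. Leaving out that library favours genes with this order, so these calls add no separate evidence.

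Unsaturated fatty acids need isomerases and reductases in addition. Decr1 and Decr2, the mitochondrial and the peroxisomal dienoyl-CoA reductase, were both lower in every celastrol library than in any ANIT library. Decr2 averaged 55.7 ± 7.04 and 33.8 ± 12.2 FPKM (n = 3 each, SD) and just missed the threshold (log2 fold change -0.75 ± 0.24 SE, adjusted p = 0.053 by limma). Decr1 averaged 34.4 ± 3.05 and 23.3 ± 6.25 FPKM (n = 3 each, SD), and its log2 fold change was -0.57 (SE 0.19, adjusted p = 0.066 by limma). The isomerases Eci1 and Eci2 had -0.07 and -0.10, and their groups overlapped.

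In the peroxisomal round, Ehhadh carries the hydratase and second dehydrogenase activities. It measured 40.4, 46.5 and 41.6 FPKM in the ANIT libraries and 19.98, 35.9 and 24.2 FPKM in the celastrol libraries. The groups did not overlap, and it fell by 0.70 on the log2 scale (SE 0.20, adjusted p = 0.042 by limma). That call was lost after median-ratio scaling (adjusted p = 0.067), quantile normalization (0.14) or dropping the filter (0.078), and when any 1 ANIT library, or 1 of celastrol replicates 1 and 3, was removed (0.084 to 0.13). Pex11a, a membrane protein of peroxisome division, averaged 35.9 ± 7.93 and 24.8 ± 6.46 FPKM (n = 3 each, SD) and missed the threshold (adjusted p = 0.12 by limma).

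The last peroxisomal step is made by 2 thiolases, Acaa1a and Acaa1b, encoded on chromosome 9. Acaa1a measured 79.7, 80.3 and 94.8 FPKM in the ANIT libraries and 78.3, 83.5 and 58.9 FPKM in the celastrol libraries, or -0.22 as log2 fold change (adjusted p = 0.36 by limma). Acaa1b, at positions 119148023 to 119157093, measured 63.2, 113 and 97.5 FPKM in the ANIT libraries and 6.07, 101 and 4.28 FPKM in the celastrol libraries. Celastrol replicate 2 was thus 19.5 times the mean of the other celastrol libraries and lay within the ANIT range. Acaa1b missed the threshold over all 6 libraries (log2 fold change -2.52 ± 1.16 SE, adjusted p = 0.16 by limma). Without celastrol replicate 2 its log2 fold change was -3.88 (adjusted p = 0.0010 by limma). Leaving out that library favours genes with this order, so the latter call adds no separate evidence. Of the 50-base windows of Acaa1b transcripts in GENCODE, 30.5% also occur in Acaa1a, so the division of reads between the thiolases is uncertain to that extent.

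Among acyl-CoA thioesterases 3 of 5 were called lower, against 20.6% of all tested genes, and Acot2 and Acot3 among them passed the abundance filter only through the ANIT libraries. Acot1, Acot2, Acot3 and Acot4 lie beside each other on the plus strand of chromosome 12 (mm10), in the order Acot2 (83987861 to 83993873), Acot1 (84009490 to 84018371), Acot4 (84038379 to 84048601) and Acot3 (84052144 to 84060402). Their products act in mitochondria (Acot2), cytosol (Acot1) and peroxisomes (Acot3 and Acot4). The RefSeq bases just before the start of each gene (GRCm38.p6, plus strand, 5′ to 3′) are shown because these neighbours had different values in celastrol replicate 2. Capitals mark a stretch with up to 2 differences, on either strand, from the repeat that PPAR-alpha and RXR bind, which is AGGTCA, 1 base of any kind, and AGGTCA again in the same direction.
Acot2: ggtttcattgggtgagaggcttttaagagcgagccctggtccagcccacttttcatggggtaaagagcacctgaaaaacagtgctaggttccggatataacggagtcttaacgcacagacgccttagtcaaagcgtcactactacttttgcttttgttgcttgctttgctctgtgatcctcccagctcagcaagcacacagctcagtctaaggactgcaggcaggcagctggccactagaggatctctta
Acot1: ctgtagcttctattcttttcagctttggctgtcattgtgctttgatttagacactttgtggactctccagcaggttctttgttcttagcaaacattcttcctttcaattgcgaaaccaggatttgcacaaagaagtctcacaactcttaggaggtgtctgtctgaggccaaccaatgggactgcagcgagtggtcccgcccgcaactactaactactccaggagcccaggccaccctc
Acot4: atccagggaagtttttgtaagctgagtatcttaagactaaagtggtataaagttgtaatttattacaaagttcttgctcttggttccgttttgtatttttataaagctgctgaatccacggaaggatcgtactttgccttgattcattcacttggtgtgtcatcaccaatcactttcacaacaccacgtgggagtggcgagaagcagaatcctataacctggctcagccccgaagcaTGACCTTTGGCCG
Acot3: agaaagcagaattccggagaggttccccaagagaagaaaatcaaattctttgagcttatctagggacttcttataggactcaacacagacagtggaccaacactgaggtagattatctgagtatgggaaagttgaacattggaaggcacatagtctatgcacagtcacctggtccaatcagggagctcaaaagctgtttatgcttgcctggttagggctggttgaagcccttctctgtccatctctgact
These windows are chr12:83987611-83987860 for Acot2, chr12:84009252-84009489 for Acot1, chr12:84038129-84038378 for Acot4 and chr12:84051894-84052143 for Acot3. Only the Acot4 window held a match, in its last 13 bases.

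Acot3 measured 7.16, 4.88 and 3.30 FPKM in the ANIT libraries and 0.61, 0.14 and 0.17 FPKM in the celastrol libraries. The group mean was 16.7-fold lower with celastrol, with a fitted log2 fold change of -2.20 (SE 0.25, adjusted p = 0.0019 by limma). Acot4, the most abundant of the 4 neighbours, measured 16.4, 15.4 and 9.76 FPKM in the ANIT libraries and 3.32, 3.05 and 2.42 FPKM in the celastrol libraries. Its mean was 4.74-fold lower and its log2 fold change -1.90 (SE 0.19, adjusted p = 0.0012 by limma), with little spread among the celastrol libraries. Acot2 measured 5.62, 2.79 and 2.14 FPKM in the ANIT libraries and 0.65, 0.73 and 0.17 FPKM in the celastrol libraries, 6.81-fold lower in the mean (log2 fold change -1.52 ± 0.29 SE, adjusted p = 0.013 by limma). For these 3 genes celastrol replicate 2 was as low as the other celastrol libraries or close to them.

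In Acot1, between Acot2 and Acot4, celastrol replicate 2 was high. Acot1 measured 3.14, 7.39 and 3.84 FPKM in the ANIT libraries and 0.73, 4.29 and 0.41 FPKM in the celastrol libraries. Celastrol replicate 2 lay within the ANIT range and replicates 1 and 3 below it, and Acot1 missed the threshold (log2 fold change -1.23 ± 0.56 SE, adjusted p = 0.16 by limma). Without celastrol replicate 2 its log2 fold change was -1.82 (adjusted p = 0.010 by limma), a call that adds no separate evidence, since leaving out that library favours genes with this order. Acot1 and Acot2 are close copies: 24.5% of the 50-base windows of Acot2 transcripts also occur in Acot1, and 13.6% of those of Acot1 in Acot2. Acot3 and Acot4 share windows with overlapping unnamed gene models of the same cluster (11.0% and 10.4% with the model sharing most). Acot12, a cytosolic acetyl-CoA hydrolase on chromosome 13, measured 29.5, 30.7 and 22.6 FPKM in the ANIT libraries and 17.5, 29.8 and 15.8 FPKM in the celastrol libraries and missed the threshold (adjusted p = 0.23 by limma).

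**Figure D2:**
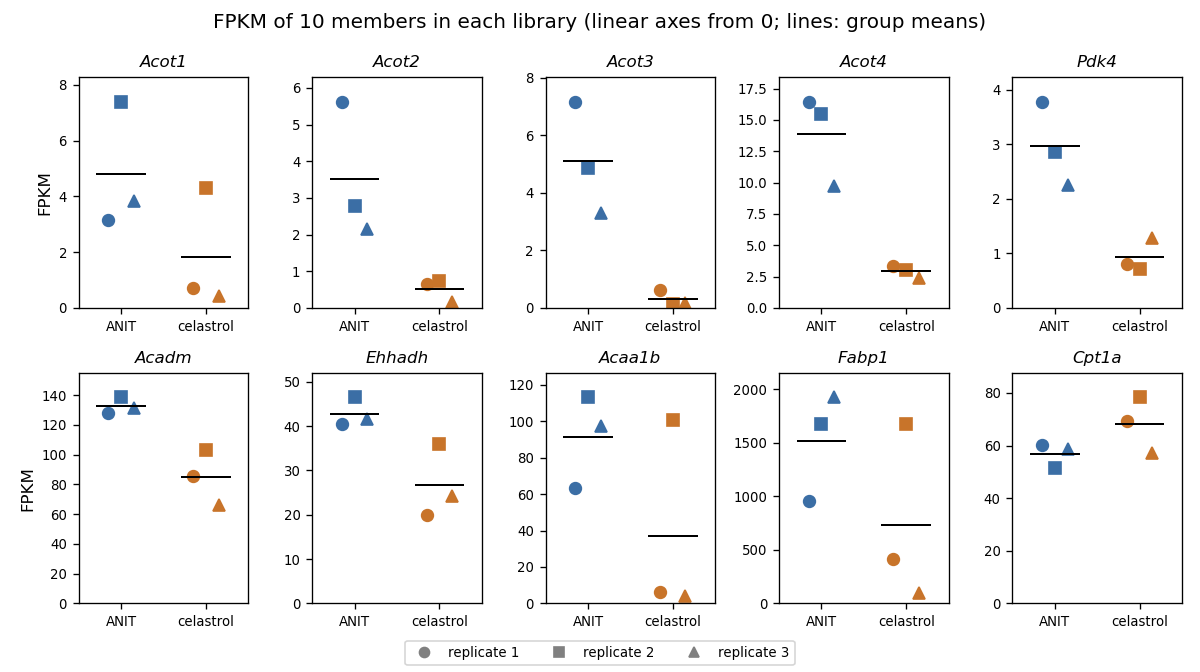
Each panel shows the FPKM of 1 member in the 3 ANIT (blue) and 3 celastrol (orange) libraries on a linear axis from 0, with marker shape giving the replicate number and lines the group means. Acot2, Acot3, Acot4 and Pdk4 are separated between groups in every replicate, whereas celastrol replicate 2 (square) of Acaa1b, Fabp1 and Acot1 lies among the ANIT values.

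Ketone body synthesis is represented by Acat1, which condenses acetyl-CoA, and Bdh1, which converts acetoacetate to beta-hydroxybutyrate. Acat1 averaged 45.7 ± 6.99 and 54.0 ± 10.9 FPKM (n = 3 each, SD) and missed the threshold (log2 fold change 0.23, adjusted p = 0.37 by limma). Bdh1 measured 35.7, 45.8 and 31.4 FPKM in the ANIT libraries and 21.8, 30.8 and 10.2 FPKM in the celastrol libraries. The Bdh1 groups did not overlap, but the spread of the celastrol libraries was wide, and it missed the threshold (log2 fold change -0.92 ± 0.38 SE, adjusted p = 0.12 by limma).

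Among other targets of PPAR-alpha, Pdk4 measured 3.78, 2.87 and 2.25 FPKM in the ANIT libraries and 0.80, 0.72 and 1.28 FPKM in the celastrol libraries. All celastrol libraries lay below all ANIT libraries, the mean was 3.18-fold lower, and Pdk4 fell by 1.03 on the log2 scale (SE 0.17, adjusted p = 0.0069 by limma). With only celastrol replicate 3 at 1 FPKM or more in its group, Pdk4 met the abundance filter mainly through the ANIT libraries. Without the filter its adjusted p was 0.016 by limma. Vnn1, a pantetheinase, averaged 2.74 ± 1.36 and 2.08 ± 0.873 FPKM (n = 3 each, SD) and missed the threshold (adjusted p = 0.62 by limma). Fabp1, the abundant liver carrier of fatty acids, measured 953, 1678 and 1925 FPKM in the ANIT libraries and 418, 1678 and 96.6 FPKM in the celastrol libraries. Celastrol replicate 2 had the same rounded value as ANIT replicate 2, and the other celastrol libraries lay below every ANIT library. Fabp1 missed the threshold over all 6 libraries (log2 fold change -1.83 ± 1.03 SE, adjusted p = 0.24 by limma). Without celastrol replicate 2 its log2 fold change was -2.85 (adjusted p = 0.025 by limma). Here too the order of the libraries favours a call once that library is left out, so it adds no separate evidence.

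The promoters of Fabp1 and Acaa1b, members that like Acot1 were split among the celastrol libraries, are shown to compare them on the same motif (RefSeq, GRCm38.p6, 5′ to 3′ on the strand of the gene, ending before the first base GENCODE annotates).
Fabp1: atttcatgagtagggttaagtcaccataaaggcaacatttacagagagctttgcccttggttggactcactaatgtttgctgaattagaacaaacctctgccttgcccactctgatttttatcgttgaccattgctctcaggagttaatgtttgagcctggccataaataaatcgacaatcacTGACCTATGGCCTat
Acaa1b: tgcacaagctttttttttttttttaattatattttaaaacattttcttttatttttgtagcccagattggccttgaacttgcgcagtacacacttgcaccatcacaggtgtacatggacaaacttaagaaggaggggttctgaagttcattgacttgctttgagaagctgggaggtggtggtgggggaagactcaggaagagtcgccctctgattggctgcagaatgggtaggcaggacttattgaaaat
The windows are chr6:71199629-71199826 on the plus strand for Fabp1 and chr9:119157094-119157343 on the minus strand for Acaa1b. Fabp1 held a stretch with 1 difference from the repeat, read on the opposite strand, and Acaa1b held none. Of the 37 members 32 had a promoter in the RefSeq table. In the 250 bases before the start, searched on both strands, 0 of the 32 held this 13-base repeat exactly, 2 held it with up to 1 difference (Acot12 and Fabp1) and 5 with up to 2 differences (also Acot4, Echs1 and Etfa). Over all 32817 promoters of the same length the shares were 0.0335%, 0.485% and 3.23%. A single AGGTCA, which is part of the repeat, lay in 7 of the 32 and in 14.0% of all promoters. Members were counted by gene, with a match in any promoter of the gene, and the background by promoter. A gene with more than 1 promoter has more chances to match, so the member counts and these shares are not on the same unit. A match describes letters only. Of the members called lower, Acot4 held a match within 2 differences in this window, and Acadl, Acadm, Ehhadh, Pdk4, Acot2 and Acot3 held none. Whether the motif bears on the expression values was not tested.

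**Figure D3:**
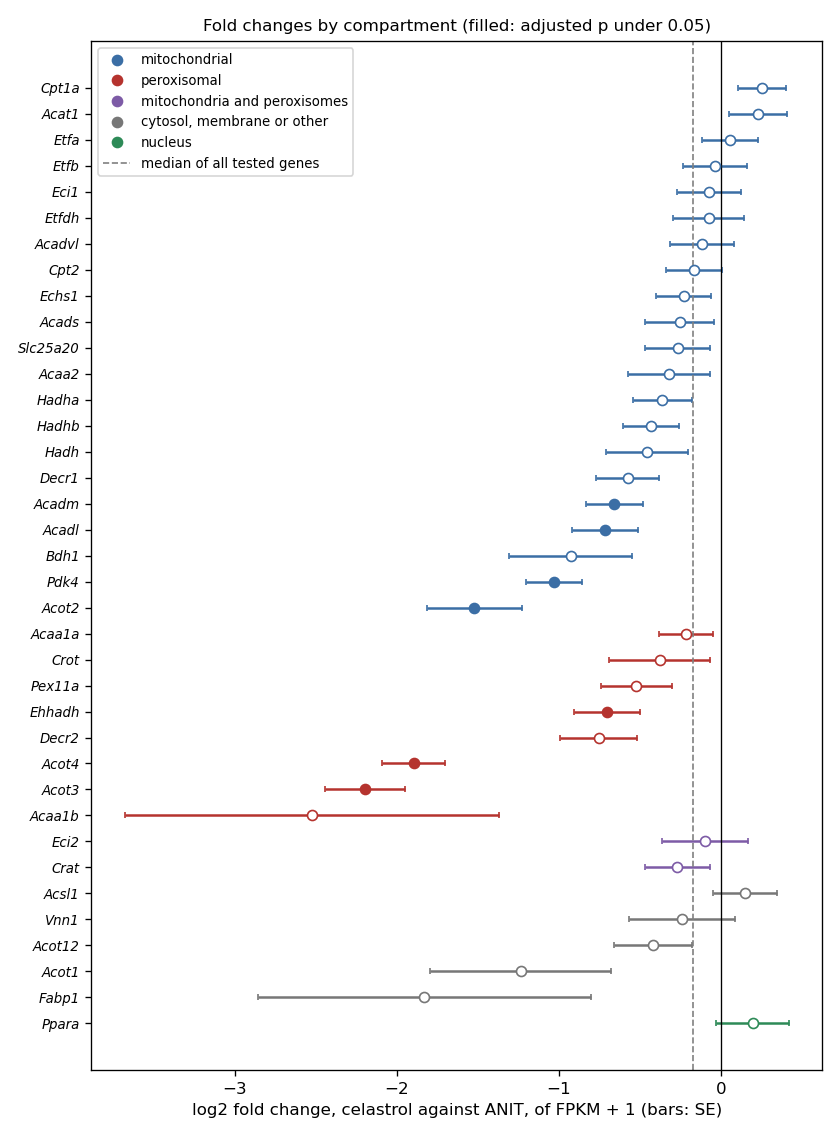
Points are log2 fold changes of celastrol against ANIT on FPKM + 1 with bars of 1 SE, grouped by the compartment of the product, and filled points passed the test. The dashed line is the median of all tested genes (-0.17). Mitochondrial members range from -1.52 to 0.25 and peroxisomal members from -2.52 to -0.22.

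The 2 compartments were then set side by side, with 21 members counted as mitochondrial and 8 as peroxisomal. The values cover these members only, and other peroxisomal enzymes, given further on, went both ways. Mitochondrial members had a median log2 fold change of -0.27, with 4 falls (Acadm, Acadl, Acot2 and Pdk4, or 19.05%, near the 20.6% of all tested genes), and 18 of 21 values were below 0. Peroxisomal members had a median of -0.73, and 8 of 8 values were below 0, where the median of all tested genes was -0.17. Of these members 3 fell (Ehhadh, Acot3 and Acot4, or 37.5%, against 20.6% of all tested genes). Acot2 and Acot3, counted among the falls of the 2 compartments, had passed the abundance filter only through the ANIT libraries. After median-ratio scaling the values of Cpt2, Acadvl, Etfb, Etfdh and Eci1 turned positive, and after quantile normalization also those of Slc25a20, Acads and the peroxisomal Acaa1a. Within each library, the mean log2(FPKM + 1) of the peroxisomal members minus that of the mitochondrial members was -0.64, -0.49 and -0.50 with ANIT and -1.41, -1.08 and -1.48 with celastrol. Every celastrol library thus lay below every ANIT library, replicate 2 included. This contrast compares genes within libraries, carries no p-value and was not recomputed after scaling. A different measure, the difference of the compartment median log2 fold changes, was -0.46 both as deposited and after median-ratio scaling. It was -0.47 after rescaling to TPM and -0.41 after quantile normalization. Leaving out the thioesterases that fell and Acaa1b, chosen after their values were seen, left 5 peroxisomal and 20 mitochondrial members. Their difference was -0.26, -0.13 and -0.00 with ANIT and -0.35, -0.26 and -0.39 with celastrol, with ANIT replicate 1 and celastrol replicate 2 at the same rounded value. The celastrol mean lay 0.78 below the ANIT mean over all members and 0.21 below it over the members left. Mitochondrial members summed to 1815, 1813 and 1672 FPKM in the ANIT libraries and 1413, 1969 and 1181 FPKM in the celastrol libraries, with celastrol replicate 2 the highest of all 6 libraries.

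**Figure D4:**
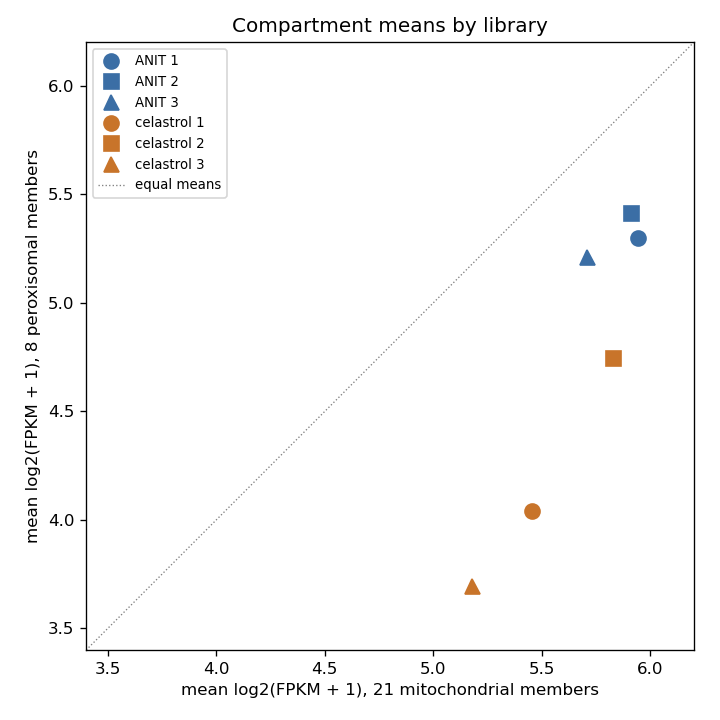
Each point is a library, placed by the mean log2(FPKM + 1) of the mitochondrial members (horizontal) and of the peroxisomal members (vertical), and the dotted line marks equal means. The celastrol libraries lie farther below the line than the ANIT libraries, at differences of -1.08 to -1.48 against -0.49 to -0.64.

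Other genes of the pathway were counted from further lists. Of 31 other oxidation enzymes 1 rose and 5 fell (16.1%, against 20.6% of all tested genes), with a median log2 fold change of 0.03. Hsd17b4, a peroxisomal bifunctional enzyme as Ehhadh is, had a value of -0.23 (adjusted p = 0.32 by limma). Scp2 and Hacl1, also peroxisomal, had 0.45 and 0.36 and missed the threshold (adjusted p = 0.079 and 0.16 by limma). Both were higher in every celastrol library than in any ANIT library. The genes that fell were Nudt19, a peroxisomal hydrolase of coenzyme A (log2 fold change -1.03, adjusted p = 0.0062 by limma), the acyl-CoA synthetases Acsl5 (-0.80, adjusted p = 0.012), Acsl3 and Acsl4, and the thioesterase Acot13.

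Of 6 other ketone body genes only Aacs passed, and it fell from 31.9 ± 6.98 to 3.28 ± 1.06 FPKM (n = 3 each, SD, log2 fold change -2.95, adjusted p = 0.00056 by limma). Aacs does not make ketone bodies but uses acetoacetate for lipid synthesis in the cytosol. Of 28 tested partners and targets of PPAR-alpha outside oxidation 10 fell (35.7%, against 20.6% of all tested genes) and none rose, with a median of -0.53. The smallest p-values in that list were those of Cidec, a lipid droplet protein (6.60 ± 1.98 to 0.617 ± 0.0666 FPKM, n = 3 each, SD, log2 fold change -2.20, adjusted p = 0.00049 by limma), and of the hormone Fgf21 (log2 fold change -3.32). Both reached 1 FPKM only in the ANIT libraries and entered the test through them. Of 26 genes of peroxisome biogenesis and transport 6 fell (23.1%, a share near the 20.6% of all tested genes) and none rose (median -0.26), led by Abcd2, a transporter of very long chain acyl-CoA (log2 fold change -1.70, adjusted p = 0.0047 by limma), and the carrier Slc25a17 (-0.92, adjusted p = 0.0054). Of 25 mitochondrial genes, of matrix and membranes, that do not oxidise fatty acids 7 fell (28%, against 20.6% of all tested genes) and none rose (median -0.25). The falls were led by Pdha1 of pyruvate dehydrogenase (-0.89, adjusted p = 0.0069 by limma) and the malate dehydrogenase Mdh2 (-0.70, adjusted p = 0.013, and 0.052 to 0.062 without ANIT replicate 1, ANIT replicate 2 or celastrol replicate 1). The median of the mitochondrial members of fat oxidation (-0.27) thus lay close to that of these other mitochondrial genes.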

How the data were processed

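Total RNA from frozen mouse liver was sequenced in 3 ANIT and 3 ANIT plus celastrol libraries, with groups and replicate numbers taken from the titles. The deposited values are FPKM, 1 table per library, per the file headers. Reads were processed with HISAT2 and featureCounts on mm10, per the submitters' processing notes. On versions, annotation, gene lengths, read length and strand, nothing is given in the sources used here. No counts were rebuilt, and values of paralogs and overlapping or antisense genes are uncertain. Symbols missing from a table were taken as 0, and 2 symbols listed more than once were left out. Of the symbols, 96.3% matched GENCODE M21, the source of gene coordinates.

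Genes at 1 FPKM or more in at least 3 libraries (10593, all 37 members among them) entered a limma fit (version 3.58.1, R 4.3.3) of log2(FPKM + 1) on group alone, with trend and robust variance, and passed at a Benjamini-Hochberg adjusted p under 0.05. Fold changes on this scale understate changes near or below 1 FPKM. The fit was tested on simulated data. Compartments follow textbook knowledge: Crat and Eci2 were counted as both, and Ppara, Acsl1, Acot1, Acot12, Vnn1 and Fabp1 as neither. Members that passed, and Ppara, Cpt1a, Acadm, Hadha, Ehhadh, Acaa1b, Pdk4 and Bdh1, were given in full. Of the other lists, Hsd17b4 and the 2 smallest p-values per list were named, and some genes that this rule covers are not reported here. Other named genes were chosen after their values were seen. The members and lists were chosen with earlier results of these data known. As alternatives the pseudocount was set to 0.1, the filter dropped, the variance made non-robust, and a replicate block, 4 scalings and the loss of each library were tried. A filter on a mean of 1 FPKM was added after seeing the data.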

Additional observations from a re-analysis of the deposited data

How the results depend on the processing

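The falls of Acot4 and Pdk4 passed under all 15 alternatives (highest adjusted p of 0.0083 and 0.033). Acot2 and Acot3 passed the filter only through the ANIT libraries and had no value without any 1 of them. With all genes tested and no filter their adjusted p was 0.024 and 0.0049. Without 1 ANIT library they could be tested only with the filter on a mean of 1 FPKM, added after seeing the data (adjusted p up to 0.041 and 0.013). No call of a member reversed. The count of members that fell was 7. It was 4 without the filter and 2 to 21 when 1 library was left out, lowest without any 1 ANIT library and highest without celastrol replicate 2. Members that rose numbered 0, and 1 after median-ratio scaling and 2 after quantile normalization (Cpt1a and Acat1). Over all genes 467 rose and 2185 fell. These counts were 800 and 1163 after median-ratio scaling and 865 and 959 after quantile normalization, and 3781 fell after rescaling to TPM. Decr1, Decr2 and Hadhb also passed as falls after rescaling to TPM. With 1 library left out, 196 to 476 rose and 911 to 3334 fell. The mitochondrial median of -0.27 became -0.012 after quantile normalization, and the difference of compartment medians ranged from -0.33 to -0.52 over the fits with 1 library fewer. With the replicate number as a block 11 members fell (29.7%), and 2106 of all 10593 genes. Same-numbered libraries had deviations correlated at 0.15, 0.23 and -0.09 over genes, and not every library correlated best with its own number. With so few libraries per group, these values cannot tell whether same-numbered libraries were paired. The causes of these shifts were not tested. At about 19 reads per FPKM and kilobase, values well below 1 FPKM (Acot2 and Acot3 with celastrol) rest on few reads.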
